A study of Rattus norvegicus with 4 samples.

Results

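The genes described here are a chosen list of 46 cell cycle and DNA replication genes in cultured heart cells of newborn rats given an omega-3 fatty acid. They were picked by symbol, and a gene counted as measured where a probe carrying its symbol had a value on all 4 arrays of the study. By that rule 37 of the 46 were measured, through 51 probes, out of 9653 measured genes and 20500 probes with 4 values. The other 9, Ccnd1, Ccnd2, Ccnb1, Cdk4, Tyms, Aurka, Kif20a, Hmmr and Nusap1, are not analysed here, since no probe carried their symbol in the annotation used. The rule itself used no expression values, but this list and the other gene lists below were chosen with earlier results of these data known.

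Cardiomyocytes from the ventricles of newborn Wistar rats were kept in primary culture with 60 µM eicosapentaenoic acid (EPA), with 60 µM docosahexaenoic acid (DHA), or, as controls, without either. All cultures, controls included, had HAM F10 medium with 10% horse serum plus 10% fetal calf serum, changed every 48 h, and were harvested once confluent. Both fatty acids are marine omega-3 fatty acids, and DHA has the longer chain and an additional double bond. RNA of fatty acid and control cells was hybridised together on 2 arrays per fatty acid, each read in both dyes, with the fatty acid cells in Cy5 on array 1 and in Cy3 on array 2.

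Every value below is a log2 ratio taken to be fatty acid over control, with 0 meaning equal signal in both. The labels do not state that direction, so it is only likely, and were it the opposite, higher and lower would swap throughout. The log base is also a reading of the values, and in base 10 each fold would be larger. The arrays of a swap were counted as 1 RNA sample per fatty acid, so a swap mean is given with the half-difference of its arrays and there is no replicate check. On DHA array 1 the first 66 columns of the printed grid held 1076 of the 1084 values below -1, though they hold 30.6% of the features. Of the 37 measured genes 23 had no probe in those columns, 5 had some there and 9 had only probes there. These are called the affected columns below, and values of the 5 genes with some probes there are given with and without them, while the 9 others have no other value. The arrays of a swap did not track each other over all probes (Pearson's r of -0.11 for EPA and -0.03 for DHA), while arrays that share a dye orientation had an r of 0.65 (array 2 of EPA and of DHA) and 0.062 (array 1 of both). Without the affected columns r was 0.65 for arrays 2 and 0.38 for arrays 1, and -0.092 within the EPA swap and -0.16 within the DHA swap.

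A dividing cell runs through a growth phase, DNA synthesis, another growth phase and mitosis, driven by cyclins that activate cyclin-dependent kinases and held back by inhibitor proteins. Many genes of DNA synthesis are switched on by E2F transcription factors, and many mitotic genes by a complex that includes B-Myb and FoxM1. Rat heart muscle cells mostly leave the cycle soon after birth, whereas fibroblasts, endothelial cells and macrophages of the same tissue can go on dividing in culture. The ratios come from whole cultures, in which fewer cells of a type and less RNA per cell cannot be told apart.

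No cell cycle gene differed from control by 1.5-fold, or by 1.3-fold, in one direction on both arrays of either swap. Differences were small. With EPA 6 of 7 helicase and clamp genes lay below control on both arrays, where 22.9% of all genes did. So did 6 of 8 cyclin and kinase genes, 2 of 6 spindle genes and neither of the 2 proliferation markers. Without the affected columns 3 of 5 helicase and clamp, 6 of 7 cyclin and kinase and 1 of 5 spindle genes did with EPA, where 23.5% of all genes did. Differences between these groups were not tested. With DHA the low median of the helicase and clamp genes (-0.28) was not seen without the affected columns (-0.0067 over 5 genes). The lowest gene free of the affected columns was Mcm5, a subunit of the replicative helicase, with a swap mean of -0.37 ± 0.21 with EPA and -0.42 ± 0.16 with DHA, which is 0.77-fold and 0.75-fold of control.

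At 1.5-fold, 0 of 37 cell cycle genes were higher and 0 lower with EPA, where 0.0311% of all measured genes were higher and 0% lower. With DHA the counts were again 0 and 0, where 0.0414% of all genes were higher and 0.0414% lower. At 1.3-fold they stayed at 0 in both directions with either fatty acid, where with EPA 0.176% of all genes were higher and 0.0829% lower, and with DHA 0.145% were higher and 0.238% lower. The member that came nearest was Mcm7 with EPA, whose smaller array value was 0.21 in size, and Mcm5 with DHA, at 0.25. Without the affected columns it was Mcm6 with EPA, at 0.33, and Mcm5 with DHA, at 0.28.

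By side alone, 20 of 37 genes lay below control on both EPA arrays and 4 above on both, where 22.9% of all genes lay below and 22% above. On both DHA arrays 15 of 37 lay below and 6 above, where 24.4% of all genes lay below and 21.3% above. Outside the first 66 columns the counts were 12 of 28 below and 3 above with EPA, beside 23.5% and 22.3% of all genes. With DHA they were 7 of 28 below and 4 above, beside 21% and 19.5%, so the DHA count was then near the background. The median over the genes was -0.05 with EPA and -0.057 with DHA, where the median over all genes was -0.0012 with EPA and 0.00021 with DHA. Without the columns it was -0.048 with EPA and 0.00064 with DHA.

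**Figure D1:**
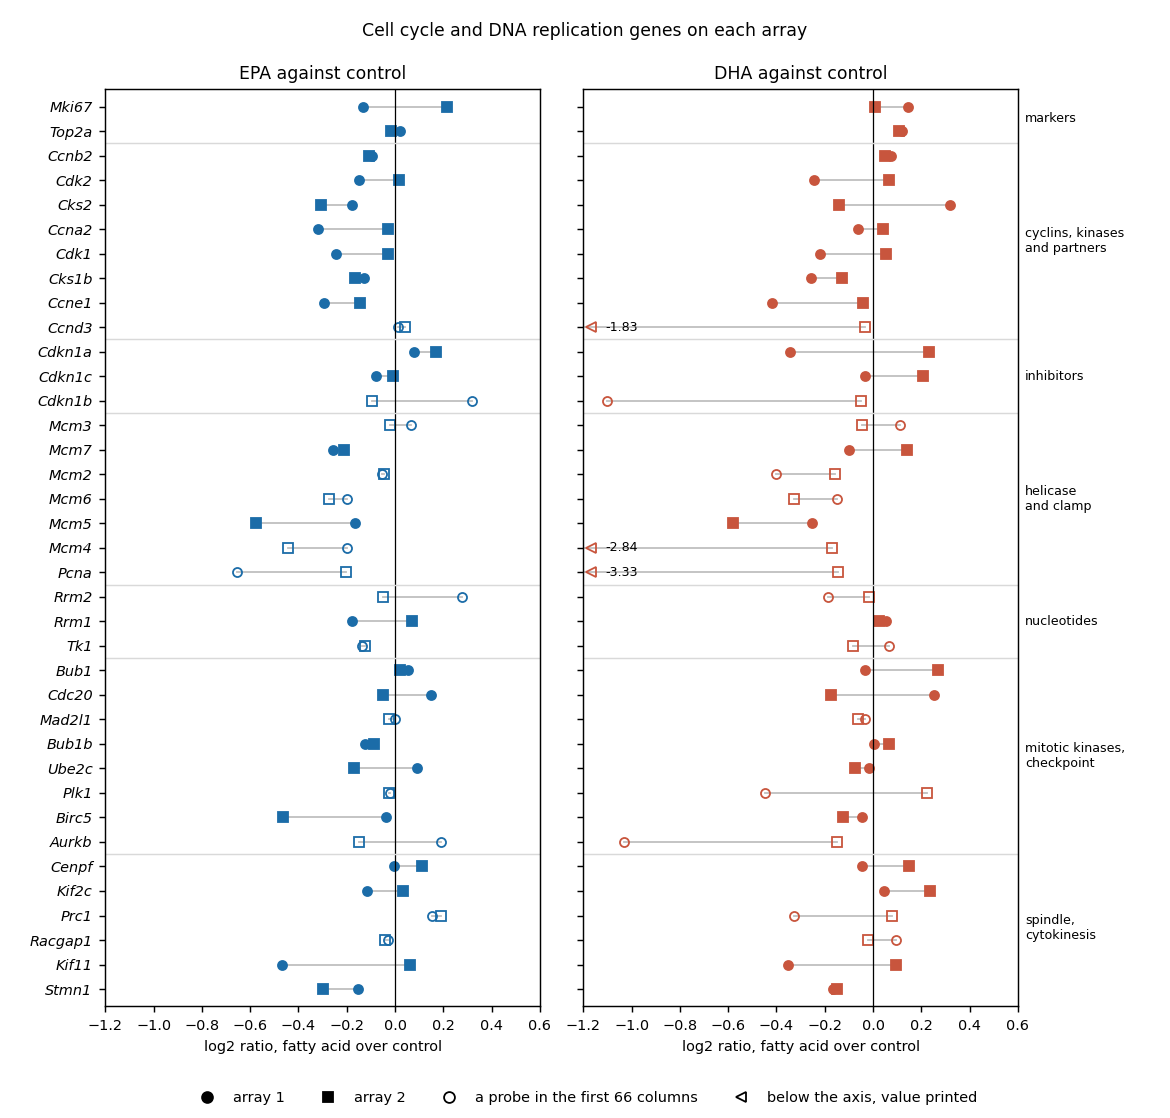
Log2 ratio of fatty acid over control (horizontal axis) for the 37 measured cell cycle genes, grouped by role, with EPA at left and DHA at right. Circles are array 1, squares array 2, open symbols genes with a probe in the first 66 columns, triangles values below the axis, and lines join the arrays of a swap. Mcm5, Mcm6, Ccne1, Cks1b and Stmn1 lie left of 0 on every array, and the 3 values off the axis, of Ccnd3, Mcm4 and Pcna, are all from DHA array 1.

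Across both swaps, 10 of 37 genes lay below control on all 4 arrays (Ccne1, Cks1b, Mcm2, Mcm4, Mcm5, Mcm6, Pcna, Birc5, Mad2l1 and Stmn1) and 0 above, where 7.59% of all genes lay below and 7% above. Whether EPA and DHA were set against the same control RNA is not stated, so this count over both is a description of the 4 arrays. With those columns left out, 5 of 28 genes (17.9%) did so (Ccne1, Cks1b, Mcm5, Mcm6 and Stmn1) and 0 lay above, beside 8.69% and 7.79% of all genes. In lists described below, 12 of 32 replication, 3 of 17 mitosis and 4 of 20 E2F and growth arrest genes then lay below on all 4 arrays. Of cell type markers 4 of 20 cardiomyocyte, 4 of 11 macrophage, 2 of 16 fibroblast, 1 of 10 endothelial and 0 of 5 smooth muscle genes did. Without DHA array 1 the count of cell cycle genes was 13 of 37, beside 14% of all genes. If the deposited ratios were Cy5 over Cy3 on every array, it would be 3 of 37, beside 15.8% of all genes.

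The promoters of the 5 genes below control on all 4 arrays with and without those columns are printed, because these genes carry the low values that do not depend on the affected columns. Each window runs from 250 bases before to 50 bases after the annotated start, taken from RefSeq on the GRCr8 assembly and written 5′ to 3′ on the gene's strand. Capitals mark matches, on either strand, to 3 motifs. The CCAAT box is CCAAT, with ATTGG as its reverse complement. The core of the cell cycle homology element was searched as TTTGAA, with TTCAAA as its reverse complement. An E2F-like site was searched as GGCGGGA, with TCCCGCC as its reverse complement. Only these exact strings were searched, so a window without a match may still hold another form of a site. The windows lie at chr1:99927860-99928159 (minus strand) for Ccne1, chr2:177135284-177135583 (minus strand) for Cks1b, chr19:13488563-13488862 (plus strand) for Mcm5, chr13:42404303-42404602 (minus strand) for Mcm6 and chr5:151964929-151965228 (plus strand) for Stmn1.
Ccne1: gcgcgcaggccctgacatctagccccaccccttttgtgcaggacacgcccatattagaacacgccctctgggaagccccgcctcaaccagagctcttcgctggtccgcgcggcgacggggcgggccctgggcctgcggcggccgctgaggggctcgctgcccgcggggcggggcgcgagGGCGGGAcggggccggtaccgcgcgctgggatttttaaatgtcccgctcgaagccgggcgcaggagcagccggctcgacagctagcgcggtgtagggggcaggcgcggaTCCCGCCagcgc
Cks1b: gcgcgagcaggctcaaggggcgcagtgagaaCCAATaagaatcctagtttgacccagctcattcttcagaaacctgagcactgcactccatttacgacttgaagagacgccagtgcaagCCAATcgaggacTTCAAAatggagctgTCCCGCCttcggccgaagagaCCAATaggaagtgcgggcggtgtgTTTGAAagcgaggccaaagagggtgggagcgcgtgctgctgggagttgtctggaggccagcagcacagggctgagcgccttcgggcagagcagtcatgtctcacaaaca
Mcm5: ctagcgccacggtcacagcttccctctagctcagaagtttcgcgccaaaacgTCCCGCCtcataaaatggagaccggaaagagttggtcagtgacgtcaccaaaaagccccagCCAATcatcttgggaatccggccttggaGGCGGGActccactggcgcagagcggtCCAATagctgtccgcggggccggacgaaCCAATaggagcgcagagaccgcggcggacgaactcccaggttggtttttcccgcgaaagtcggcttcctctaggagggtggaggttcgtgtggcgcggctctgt
Mcm6: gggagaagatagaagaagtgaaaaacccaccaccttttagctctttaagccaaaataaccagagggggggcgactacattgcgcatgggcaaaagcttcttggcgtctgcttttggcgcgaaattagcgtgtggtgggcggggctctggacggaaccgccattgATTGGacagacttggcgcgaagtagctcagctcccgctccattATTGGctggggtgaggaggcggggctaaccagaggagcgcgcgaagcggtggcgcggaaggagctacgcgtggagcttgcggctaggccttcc
Stmn1: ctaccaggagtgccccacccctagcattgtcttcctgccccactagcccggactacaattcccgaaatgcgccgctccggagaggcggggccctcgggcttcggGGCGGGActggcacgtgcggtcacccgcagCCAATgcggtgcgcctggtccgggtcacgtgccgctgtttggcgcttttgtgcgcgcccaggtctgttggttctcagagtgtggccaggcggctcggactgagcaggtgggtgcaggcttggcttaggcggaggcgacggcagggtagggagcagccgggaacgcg

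The Mcm5 window held 3 CCAAT and 2 GGCGGGA matches, the Cks1b window 3 CCAAT, 2 TTTGAA and 1 GGCGGGA, and the Ccne1 window 2 GGCGGGA. The Mcm6 window held 2 CCAAT matches and the Stmn1 window 1 CCAAT and 1 GGCGGGA. No match of one motif overlapped a match of another in these windows. A promoter was found for 30 of the 37 measured genes, of which 73.3% held CCAAT, 46.7% TTTGAA and 43.3% GGCGGGA. Of all 33469 promoters of the same length, 37.5% held CCAAT, 18.3% TTTGAA and 10.5% GGCGGGA. By role, TTTGAA was in 5 of 6 promoters of the mitotic kinase and checkpoint genes and in 1 of 6 of the helicase and clamp genes. Between the genes below control on all 4 arrays (9 promoters, of which some are low only with the affected columns) and the other measured genes (21 promoters), GGCGGGA was in 66.7% against 33.3%, CCAAT in 66.7% against 76.2% and TTTGAA in 44.4% against 47.6%.

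Of the measured genes 7 encode the replicative helicase and its sliding clamp. The helicase is a ring of the MCM proteins Mcm2 to Mcm7 that unwinds DNA ahead of the replication fork, and Pcna is the clamp that holds the polymerases on the template. Of these 7 genes 6 lay below control on both EPA arrays and 5 on both DHA arrays, with medians of -0.24 with EPA and -0.28 with DHA. When the first 66 columns were left out, 5 of them were still measured, 3 below on both EPA arrays and 2 on both DHA arrays, with medians of -0.22 with EPA and -0.0067 with DHA. Mcm4 and Pcna have no probe outside those columns.

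Mcm5 read -0.16 on array 1 and -0.58 on array 2 with EPA, and -0.25 and -0.58 with DHA. All 4 values were below 0, with the lower value of each swap on array 2, where the fatty acid cells were in Cy3. For both fatty acids together limma gave Mcm5 a mean of -0.39 with an SE of 0.06 and an unadjusted p of 0.00557, and it did not pass adjustment over all probes (adjusted p = 0.891).

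Mcm6 had 1 probe inside the first 66 columns and 1 outside. The outside probe read -0.37 and -0.32 with EPA and -0.14 and -0.39 with DHA, so both swaps lay below control on both arrays. The inside probe read -0.024 and -0.23 with EPA and -0.16 and -0.26 with DHA, on the same side as the outside one on each array. In limma the outside probe had a mean of -0.30 with an SE of 0.062 (unadjusted p = 0.0135, adjusted p = 0.891).

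Mcm7 read -0.26 and -0.21 with EPA and -0.10 and 0.14 with DHA. Both EPA arrays lay below control, whereas the DHA arrays lay on opposite sides of it. Its 2 probes averaged -0.29 and -0.18 with EPA, and 0.088 and -0.048 with DHA.

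Mcm2 and Mcm3 had 1 probe on each side of the column boundary, and leaving out the inside probe turned Mcm2 with both fatty acids and Mcm3 with EPA. Mcm2 averaged -0.05 ± 0.0035 with EPA and -0.28 ± 0.12 with DHA over both probes, and 0.044 ± 0.13 with EPA and 0.056 ± 0.20 with DHA without the columns. Mcm3 averaged 0.023 ± 0.045 with EPA and 0.032 ± 0.079 with DHA, and without the columns -0.017 ± 0.089 and 0.078 ± 0.037.

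Pcna and Mcm4 were low on every array, and both have only probes in the affected columns. Pcna read -0.65 and -0.20 with EPA, and -3.33 and -0.14 with DHA. Mcm4 read -0.20 and -0.44 with EPA, and -2.84 and -0.17 with DHA. The values of -3.33 and -2.84 stand far from the other 3 arrays of each gene, and without DHA array 1 the single DHA values are -0.14 for Pcna and -0.17 for Mcm4. On the EPA arrays, Pcna averaged -0.43 ± 0.22, the lowest of the 37 genes, and Mcm4 -0.32 ± 0.12.

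The cyclins, their kinases and the small Cks proteins, which bind the kinases and steer their targets, gave 8 measured genes. Of these 6 lay below control on both EPA arrays and 1 above, with a median of -0.14. On both DHA arrays 3 lay below and 1 above, with a median of -0.086. Outside those columns, which hold the only probe of Ccnd3, the counts were 6 of 7 below with EPA and 2 of 7 below with DHA.

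Ccne1 encodes cyclin E1, which with Cdk2 starts DNA synthesis. It read -0.29 and -0.14 with EPA and -0.42 and -0.043 with DHA, below control on every array, with the value farther from 0 on array 1 of each swap. In limma its mean over both fatty acids was -0.22 with an SE of 0.058 (unadjusted p = 0.0272, adjusted p = 0.891).

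Cks1b, which also helps to mark the inhibitor p27 for destruction, read -0.13 and -0.17 with EPA and -0.26 and -0.13 with DHA. Its swap means were -0.15 ± 0.018 with EPA and -0.19 ± 0.065 with DHA, and all 4 arrays lay within a narrow band below control. Its paralog Cks2 read -0.18 and -0.31 with EPA, but 0.32 and -0.14 with DHA, so the DHA arrays of Cks2 lay on opposite sides of control.

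Cdk1, the kinase that drives mitosis, read -0.25 and -0.03 with EPA and -0.22 and 0.053 with DHA. In both swaps the low value was on array 1 and the array 2 value was near 0, so with DHA the half-difference (0.14) was larger than the mean (-0.083). Cdk2, the partner of cyclins E and A, followed the dye in both swaps, with -0.15 and 0.016 with EPA and -0.24 and 0.066 with DHA.

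Ccna2, cyclin A2 of S phase and early mitosis, averaged -0.18 ± 0.15 with EPA and -0.01 ± 0.051 with DHA. Ccnb2, cyclin B2 of mitosis, averaged -0.10 ± 0.0052 with EPA and 0.062 ± 0.013 with DHA, below control on both EPA arrays and above it on both DHA arrays. Ccnd3, cyclin D3 of early growth phase, read 0.011 and 0.041 with EPA and -1.83 and -0.034 with DHA, and its value on DHA array 1 lies in the affected columns. The EPA and DHA arrays of Ccnb2 and Ccnd3 thus lay on opposite sides of control, as did those of 8.49% of all genes. Bub1b, described below, did so only as the average of its 2 probes. Outside the affected columns Ccnb2 was the 1 gene of 28 to do so, beside 5.99% of all genes.

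The 3 kinase inhibitors showed no shared direction. Cdkn1a, encoding p21, a p53 target that stops the cycle, read 0.08 and 0.17 with EPA and -0.35 and 0.23 with DHA. With EPA both arrays lay above control, but its 3 probes averaged 0.33, 0.034 and 0.014, so most of the gene value came from 1 probe. Cdkn1b, encoding p27, averaged 0.11 ± 0.21 with EPA and -0.58 ± 0.53 with DHA over both of its probes, and 0.087 ± 0.091 with EPA and -0.056 ± 0.25 with DHA without the affected columns. Cdkn1c, encoding p57, averaged -0.044 ± 0.034 with EPA and 0.088 ± 0.12 with DHA.

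Among the genes that make building blocks for DNA, none held a side on all 4 arrays. Tk1, thymidine kinase, averaged -0.13 ± 0.0059 with EPA and -0.0091 ± 0.076 with DHA. Its 2 probes, both in the first 66 columns, differed, with EPA means of 0.0047 and -0.27 and DHA means of 0.15 and -0.17. Rrm1, the large subunit of ribonucleotide reductase, averaged -0.053 ± 0.12 with EPA and 0.039 ± 0.015 with DHA. The small subunit, Rrm2, averaged 0.12 ± 0.16 with EPA and -0.10 ± 0.085 with DHA, from a probe in those columns.

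The general markers of proliferation did not lie below control. Mki67, which encodes the Ki-67 antigen present in cycling cells, read -0.13 and 0.21 with EPA and 0.14 and 0.0092 with DHA. Top2a, the topoisomerase that untangles chromosomes before mitosis, read 0.019 and -0.017 with EPA and 0.12 and 0.11 with DHA. The EPA arrays of both genes lay on opposite sides of 0, and the DHA arrays lay above it. With the affected columns left out, the array 2 value of Mki67 with DHA was -0.018, because the array median shifted, so the DHA direction of Mki67 depends on that choice.

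The mitotic kinases, checkpoint and anaphase genes numbered 8 measured, with medians of -0.019 with EPA and -0.047 with DHA. On both EPA arrays 4 of them lay below control and 1 above, and on both DHA arrays 4 lay below and 1 above. Outside the affected columns 1 of 5 lay below on both EPA arrays and 2 of 5 on both DHA arrays.

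Birc5, encoding survivin of the chromosomal passenger complex, read -0.035 and -0.46 with EPA and -0.044 and -0.12 with DHA. Its EPA mean of -0.25 rests on array 2, and the array 1 value was near 0. Aurkb, the kinase of the same complex, averaged 0.022 ± 0.17 with EPA and -0.59 ± 0.44 with DHA from a probe in the affected columns.

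Bub1, a kinase of the spindle checkpoint, had the highest mean of the 4 arrays among genes free of those columns, at 0.078. It read 0.053 and 0.02 with EPA and -0.032 and 0.27 with DHA, so a single array, DHA array 2, set that rank. Bub1b, its checkpoint partner BubR1, averaged -0.11 ± 0.018 with EPA and 0.035 ± 0.03 with DHA. Mad2l1, which holds the anaphase activator in check, read between -0.063 and -0.00077 over the 4 arrays, with means of -0.013 ± 0.013 with EPA and -0.047 ± 0.016 with DHA.

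Cdc20, the anaphase activator itself, averaged 0.049 ± 0.098 with EPA and 0.039 ± 0.21 with DHA, with array 1 above and array 2 below control in both swaps. Ube2c, the ubiquitin-conjugating enzyme that works with it, averaged -0.04 ± 0.13 with EPA and -0.047 ± 0.03 with DHA. Plk1, polo-like kinase, averaged -0.024 ± 0.0015 with EPA and -0.11 ± 0.34 with DHA from a probe in the affected columns.

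Of the 6 measured spindle, centromere and cytokinesis genes, 2 lay below control on both EPA arrays and 1 on both DHA arrays. Stmn1, encoding stathmin, which destabilises microtubules, was the one gene of the group below control on every array. It read -0.15 and -0.30 with EPA and -0.17 and -0.15 with DHA. In limma its mean over both fatty acids was -0.19 with an SE of 0.061 (unadjusted p = 0.0473, adjusted p = 0.891).

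Kif11, the motor that pushes spindle poles apart, read -0.47 and 0.062 with EPA and -0.35 and 0.094 with DHA. Low on array 1 and slightly high on array 2 of both swaps, the average of its 2 probes followed the dye, but the probes were unlike. The probe that read -0.54 and 0.34 with EPA and -0.47 and 0.24 with DHA followed the dye. The other probe lay below control on every array, at -0.40 and -0.22 with EPA and -0.23 and -0.047 with DHA. Kif2c, a motor that takes microtubules apart at centromeres, read -0.11 and 0.034 with EPA and 0.043 and 0.23 with DHA.

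Cenpf, a centromere protein, read -0.0062 and 0.11 with EPA and -0.047 and 0.15 with DHA. Its 2 probes ran in opposite directions with EPA, at -0.41 and 0.40 on array 1 and at 0.43 and -0.21 on array 2, so the gene value near 0 is an average of unlike probes. Prc1, which bundles microtubules for cytokinesis, averaged 0.17 ± 0.017 with EPA and -0.12 ± 0.20 with DHA from a probe in the affected columns. Racgap1, which positions the cleavage furrow, averaged -0.035 ± 0.0081 with EPA and 0.037 ± 0.058 with DHA over 3 probes, of which 2 are in those columns. Without them it averaged -0.035 ± 0.11 with EPA and 0.008 ± 0.21 with DHA, below control on both arrays 1 and above it on both arrays 2.

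**Figure D2:**
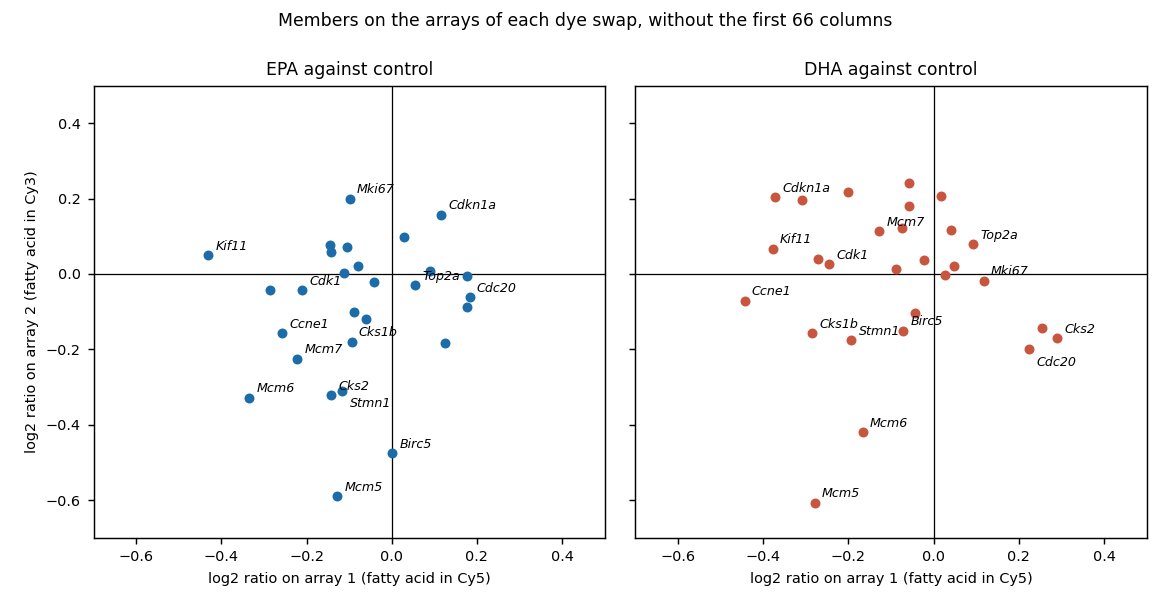
Log2 ratio on array 2, with the fatty acid cells in Cy3 (vertical axis), against array 1, with them in Cy5 (horizontal axis), for the 28 cell cycle genes measured outside the first 66 columns, with EPA at left and DHA at right. Genes at the lower left, such as Mcm5, Mcm6, Ccne1, Cks1b and Stmn1, lie below control in both orientations. Cdc20 and the probe average of Kif11 change side with the dye.

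Several genes, taken as the average of their probes, had a side that followed the dye rather than the fatty acid. Cdk2, Kif11 and Cenpf lay below 0 on both arrays 1 and above 0 on both arrays 2, and Mcm3 and Cdc20 did the reverse, where 15.8% of all genes did the first and 12.2% the reverse. Without the affected columns Cdk2, Kif11 and Racgap1 did the first and Mcm2 and Cdc20 the reverse, beside 17.5% and 14.6% of all genes. Of the 12 genes with more than 1 probe, the probes lay on opposite sides of 0 in 5 with EPA and in 6 with DHA, and the median gap between probes of a gene was 0.14 with either fatty acid. The swap mean of 24 of the 37 genes with EPA, and of 26 with DHA, lay nearer to 0 than that gap.

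Over both fatty acids together limma, fitted to the 2 swap means of all 20500 probes, gave no call for 51 cell cycle probes, and 0% of all probes passed (smallest adjusted p = 0.891). At an unadjusted p under 0.05 there were 5 cell cycle probes, where 4.43% of all probes reached that level. All 5 lay below control, 1 each for Mcm5, Mcm6, Ccne1, Stmn1 and Tk1, and the Tk1 probe had a mean of -0.22 with an SE of 0.065 (unadjusted p = 0.0391, adjusted p = 0.891). Without the first 66 columns 0.0141% of probes passed limma, none of them of a cell cycle gene, and the smallest adjusted p of a cell cycle probe was 0.144. Of the 35 cell cycle probes then tested, 7 had an unadjusted p under 0.05 in limma, all below control, where 12.3% of all probes reached that level.

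With both arrays 2 alone, 9 cell cycle probes passed limma, where 8.2% of all probes did. Of those, 6 lay below control (2 of Mcm6 and 1 each of Mcm5, Cdkn1b, Tk1 and Racgap1) and 3 above (Cenpf, Cdkn1a and Kif11), and the smallest adjusted p was 0.00564, for Mcm5. Each call is of a single probe. Other probes of Cdkn1b, Tk1, Racgap1 and Kif11 lay on the opposite side of 0 on both arrays 2. That of Cdkn1b read 0.0088 with EPA and 0.22 with DHA, and that of Kif11 -0.22 and -0.047. The other Cenpf probe read -0.21 with EPA and 0.0048 with DHA, whereas the other Cdkn1a probes lay above 0 on both. The called probes of Cdkn1b, Tk1 and Racgap1, and the inside probe of Mcm6, are in the affected columns. Both arrays 2 share 1 dye orientation, so dye and fatty acid cannot be told apart there. With both arrays 1 alone no cell cycle probe passed limma (smallest adjusted p = 0.783), and 2 had an unadjusted p under 0.05, where 4.24% of all probes did.

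The replication machinery was followed further in a list of 53 other genes of DNA replication and S phase, of which 40 were measured. On both EPA arrays 27 of 40 lay below control and 3 above, and on both DHA arrays 18 of 40 lay below and 4 above, beside the 22.9% and 24.4% of all genes below. The list medians were -0.13 with EPA and -0.074 with DHA. Without the first 66 columns 19 of 32 lay below on both EPA arrays and 17 of 32 on both DHA arrays, beside 23.5% and 21% of all genes, with medians of -0.13 with EPA and -0.082 with DHA. At 1.5-fold no gene of this list was called. If the ratios were Cy5 over Cy3, 4 of 40 would lie below on both EPA arrays and 7 of 40 on both DHA arrays, where 28.3% and 29.4% of all genes would.

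Gins1, part of the GINS complex that works with the helicase, was the one gene of this list lower by 1.3-fold on both EPA arrays with all features, at -0.79 and -0.43. Its DHA values were -0.16 and -0.22, on the same side but smaller. Gmnn, encoding geminin, which blocks repeated replication, was lower by 1.3-fold on both DHA arrays at -0.50 and -0.44, from a probe in the first 66 columns, and read -0.19 and -0.38 with EPA. Among all genes 0.0829% were lower by 1.3-fold on both arrays with EPA and 0.238% with DHA. Chaf1b, a subunit of the factor that loads histones onto new DNA, read -0.31 and -0.59 with EPA and -0.47 and -0.36 with DHA, and was the lowest gene of the list with no probe in those columns. With the affected columns left out and the arrays centred again, Prim1 also passed 1.3-fold with EPA, at -0.45 and -0.38, and Chaf1b with DHA, at -0.50 and -0.38. Then 2 of the 32 genes were lower by 1.3-fold with EPA and 1 with DHA, beside 12 and 13 of all 7223 genes.

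Of the genes below control on every array, Orc6, of the origin recognition complex, averaged -0.08 ± 0.014 with EPA and -0.98 ± 0.92 with DHA, and Slbp, which binds histone mRNA, averaged -0.29 ± 0.071 with EPA and -0.65 ± 0.43 with DHA. Both have a probe in the affected columns, and the large DHA half-differences come with DHA array 1. The other probe of Slbp averaged -0.41 ± 0.20 with EPA and -0.16 ± 0.055 with DHA. Rpa1, the large subunit of the single-strand binding protein, was the only gene of the list above control on every array with all features, at 0.069 ± 0.015 with EPA and 0.041 ± 0.032 with DHA. Of its 3 probes 2 are in the affected columns, and the other read -0.40 and 0.24 with EPA and -0.20 and 0.11 with DHA, so without the columns 0 genes of the list lay above on every array. Rpa2, its partner, lay below on every array, at -0.40 ± 0.23 with EPA and -0.17 ± 0.10 with DHA.

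Some further genes are named after their values were seen, low ones first. The primase subunits Prim1, at -0.43 ± 0.056 with EPA and -0.11 ± 0.019 with DHA, and Prim2, at -0.28 ± 0.15 with EPA and -0.22 ± 0.054 with DHA, were below control on every array. Fen1, the nuclease that trims flaps on the lagging strand, averaged -0.14 ± 0.00065 with EPA and -0.26 ± 0.028 with DHA. Rfc2 and Rfc3 of the clamp loader averaged -0.22 ± 0.06 and -0.14 ± 0.081 with EPA, and -0.12 ± 0.017 and -0.10 ± 0.013 with DHA. Lig1, the ligase that seals the lagging strand, averaged -0.13 ± 0.06 with EPA and -0.059 ± 0.021 with DHA. Other fork genes lay near or above 0, with means of the 4 arrays of 0.12 for Rfc1 of the clamp loader, 0.016 for Pole, -0.019 for Pola1 and -0.027 for Pold1, which are catalytic subunits of the replicative polymerases, and -0.042 for the helicase cofactor Cdc45.

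**Figure D3:**
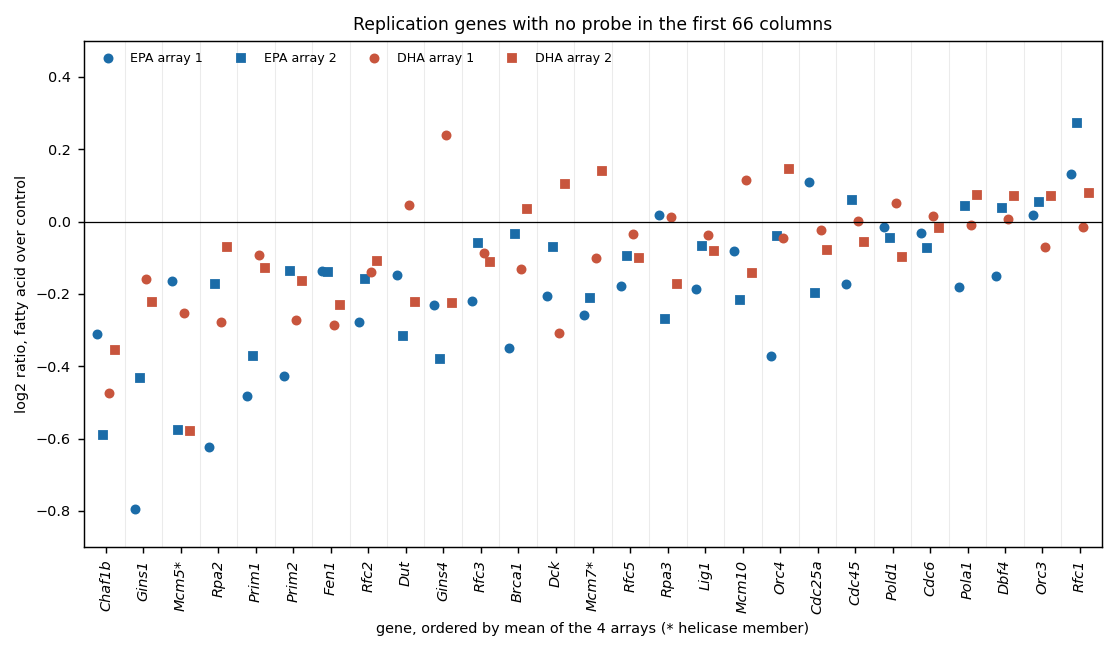
Log2 ratio of fatty acid over control (vertical axis) on each of the 4 arrays for 27 replication genes with no probe in the first 66 columns, ordered by the mean of the 4 arrays. Circles are array 1 and squares array 2, EPA in blue and DHA in red, and asterisks mark Mcm5 and Mcm7. From Chaf1b to Rfc2 all 4 points lie below 0, and Rfc1 at the right end has 3 of its 4 points above it.

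A list of 54 other mitosis genes, with 28 measured, lay nearer to 0. On both EPA arrays 7 of 28 lay below control and 5 above, and on both DHA arrays 12 lay below and 6 above, beside 22.9% and 24.4% of all genes below and 22% and 21.3% above, with medians of -0.026 with EPA and -0.045 with DHA. Without the first 66 columns 4 of 17 lay below on both arrays with either fatty acid, which is 23.5% of the list and close to the shares of all genes. Cdc27, of the anaphase-promoting complex, was higher by 1.3-fold on both DHA arrays, at 0.42 and 0.40 from a probe in those columns, and read -0.29 and 0.18 with EPA. Among all genes 0.145% were higher by that size with DHA.

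Nuf2, of the kinetochore, was the lowest mitosis gene on one side of control throughout, at -0.28 ± 0.08 with EPA and -0.13 ± 0.11 with DHA. Melk, a kinase found in dividing cells, averaged -0.15 ± 0.007 with EPA and -0.083 ± 0.036 with DHA, and Smc2 of condensin -0.058 ± 0.053 with EPA and -0.095 ± 0.0047 with DHA. Of the 3 Smc2 probes 2 are in the affected columns, and the other followed the dye, at -0.26 and 0.016 with EPA and -0.24 and 0.031 with DHA. Cdc23 of the anaphase-promoting complex averaged 0.095 ± 0.035 with EPA and 0.11 ± 0.0036 with DHA, and Dlgap5, a spindle protein, 0.015 ± 0.012 with EPA and 0.11 ± 0.00014 with DHA. Those 2 were the only mitosis genes above control on all 4 arrays.

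In the third list, of 34 E2F, retinoblastoma family and growth arrest genes with 25 measured, the counts were 8 below and 5 above on both EPA arrays, and 10 below and 6 above on both DHA arrays, beside 22.9% and 24.4% of all genes below and 22% and 21.3% above. Outside the affected columns the EPA balance turned, with 6 of 20 below and 8 above, and with DHA 8 lay below and 4 above, beside 23.5% and 21% of all genes below and 22.3% and 19.5% above. The medians were -0.05 with EPA and -0.032 with DHA. Btg3, an antiproliferative gene, averaged -0.29 ± 0.19 with EPA and -0.18 ± 0.11 with DHA. Max, the partner of Myc, averaged -0.18 ± 0.096 with EPA and -0.20 ± 0.068 with DHA. Tfdp2, a partner of E2F proteins, averaged -0.086 ± 0.015 with EPA and -0.23 ± 0.18 with DHA, and its probe outside the affected columns 0.027 ± 0.02 with EPA and -0.17 ± 0.087 with DHA. Cdk6, a kinase of early growth phase, lay above control on every array at 0.081 ± 0.021 with EPA and 0.03 ± 0.014 with DHA, and so did Cdkn2a, an inhibitor locus of that kinase, at 0.089 ± 0.0058 with EPA and 0.039 ± 0.0026 with DHA. When the arrays were centred without the affected columns, Cdk6 read -0.012 on DHA array 2.

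**Figure D4:**
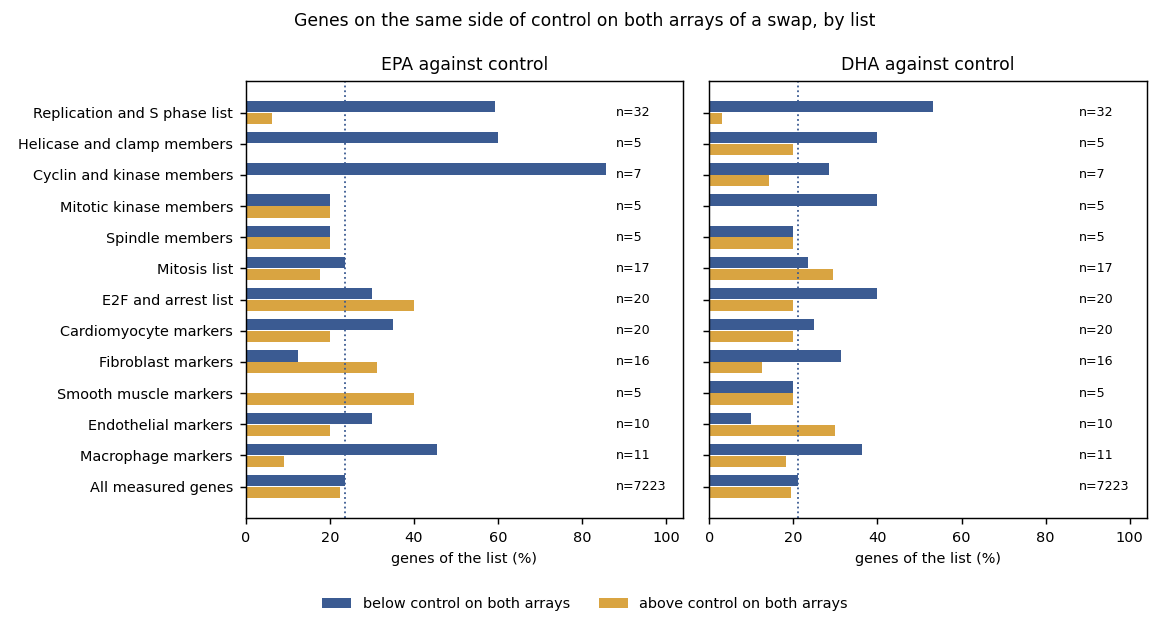
Share of each gene list (horizontal axis, percent) below control (blue) or above control (yellow) on both arrays of a swap, without the first 66 columns, with EPA at left and DHA at right. The number of genes is printed at the right of each row, and the dotted line is the share of all 7223 genes below control. The replication and S phase list stands at 59.4% below with EPA and 53.1% with DHA, against 23.5% of all genes with EPA and 21% with DHA.

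Markers of the cell types such a culture can hold were read beside these counts, and since ratios give no level, the labelled cell type could not be checked by its markers. Of 17 measured macrophage and leukocyte markers 9 lay below control on both EPA arrays and 9 on both DHA arrays, beside 22.9% and 24.4% of all genes, with array medians of -0.11 and -0.16 with EPA and -0.10 and -0.079 with DHA. Outside the affected columns 5 of 11 lay below on both EPA arrays and 4 of 11 on both DHA arrays, beside 23.5% and 21%. By size, 1 marker of this list was lower by 1.3-fold with EPA and 3 with DHA, beside 0.0829% and 0.238% of all genes. Of the 3 with DHA 1 was lower by 1.5-fold, beside 0.0414% of all genes, whereas no cell cycle gene passed either size. Outside the affected columns 1 of 11 was lower by 1.3-fold with EPA and 2 of 11 with DHA, beside 12 and 13 of all 7223 genes. Among fibroblast markers 1 was higher by 1.3-fold with EPA, beside 0.176% of all genes. The cardiomyocyte markers had array medians of -0.076 and 0.038 with EPA and -0.079 and 0.019 with DHA over 26 genes. Fibroblast markers, 19 measured, had array medians of -0.0021 and 0.18 with EPA and -0.40 and 0.11 with DHA. The 8 smooth muscle markers had -0.036 and 0.17 with EPA and -0.27 and 0.084 with DHA, and the 11 endothelial markers -0.038 and 0.024 with EPA and -0.052 and 0.10 with DHA. The macrophage list was thus the marker list whose median lay below 0 on every array, as the helicase and clamp genes did, and its part in the result was not tested.

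EPA and DHA were given at the same concentration in the same medium, so they were compared within each dye orientation. A dye effect cancels there only as far as both arrays share it, which was not tested. Without the affected columns r was 0.38 between arrays 1 and 0.65 between arrays 2. Over the 28 genes outside the first 66 columns, the median EPA minus DHA difference was -0.037, beside -0.011 over all genes. EPA lay below DHA in both orientations for 9 of 28 cell cycle genes and above for 1, where 30.4% of all genes lay below and 24.5% above. With all features the counts were 12 of 37 below and 6 above, beside 30.6% and 27.3% of all genes, with a median of 0.0025. With 1 sample per fatty acid none of these differences has a test or an interval, and the lack of one does not show that the fatty acids act alike.

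With all features the differences below 0 in both orientations were led by Cks2, at -0.33 ± 0.17, and Mcm7, at -0.25 ± 0.098. Kif2c followed at -0.18 ± 0.021, Ccna2 at -0.16 ± 0.094, Ccnb2 at -0.16 ± 0.0074 and Bub1b at -0.14 ± 0.011. Top2a, at -0.11 ± 0.011, was lower with EPA than with DHA as well. Without the affected columns each of these was nearer to 0. Cks2 was then at -0.29, Mcm7 at -0.22, Kif2c at -0.14, Ccna2 at -0.13, Ccnb2 at -0.12, Bub1b at -0.10 and Top2a at -0.073. Mcm5 was the one gene outside the affected columns with EPA above DHA in both orientations, by 0.083 ± 0.067 without the columns.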

How the data were processed

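The authors deposited 1 value per feature and array, already centred and read here as a log2 ratio, for 22575 features, of which 2075 were empty and 20500 had 4 values. For background correction, dye normalization, scanner software, log base and ratio direction, details were not given in the sources used here. Spot intensities were not used, so signal over background is unknown.

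Array medians were set to 0. Probe names came from an older platform annotation, updated through the GRCr8 gene table, and 12750 had 1 symbol, 5 several and 7745 were unlisted. Probes of a gene were averaged. The arrays of a swap count as 1 sample, so sizes were counted where both arrays passed 1.5-fold (1.3-fold as an alternative) in one direction. limma 3.58.1 in R 4.3.3 (lmFit, eBayes) tested the 2 swap means of every probe against 0, with Benjamini-Hochberg adjustment over all probes and a threshold of 0.05. The code was tried on simulated data with shifts larger than the limma mean of any cell cycle probe. That trial does not show whether differences of the size seen here could be found. The spread in limma is the EPA to DHA difference, and p-values measure only the spread between these samples. With 4 arrays, their number limits the precision.

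The genes, the lists and the reading of direction and base were chosen with earlier results of these data known. All measured genes are named. Values per array are given for the 8 lowest and 5 highest means among genes with no probe in the first 66 columns, and for Mki67, Top2a, Pcna, Cdk1 and Cdkn1a. From the other lists the text names genes 1.3-fold from 0 on both arrays of a swap, and the 3 lowest and 3 highest means among genes on one side throughout, and, with a remark, some chosen after their values were seen. Alternatives were the other ratio directions, centring, spread, quantile and local normalization, the choice of probe, the affected columns, each array left out and a replicate block. Promoters were matched by symbol in a RefSeq table of the GRCr8 assembly and searched in Python 3.11.15.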

Additional observations from a re-analysis of the deposited data

Results flagged for a closer look

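In 3 genes both EPA arrays lay on one side of control and both DHA arrays on the other, as in 8.49% of all measured genes, and the difference was not tested because there is 1 sample per fatty acid. Ccnb2 differed by -0.163 between EPA and DHA, with swap means of -0.10 ± 0.0052 with EPA and 0.062 ± 0.013 with DHA. Bub1b differed by -0.142, with swap means of -0.11 ± 0.018 with EPA and 0.035 ± 0.03 with DHA, and its 2 probes averaged -0.17 and -0.045 with EPA and 0.0052 and 0.065 with DHA. Neither probe alone held this pattern on every array. The first read -0.090 and 0.10 on the DHA arrays, and the second 0.048 and -0.14 on the EPA arrays. Ccnd3 differed by 0.958, with 0.011 and 0.041 on the EPA arrays and -1.83 and -0.034 on the DHA arrays. The Ccnd3 value of -1.83 is from the affected columns of DHA array 1, and Ccnd3 has no probe elsewhere. Without those columns Ccnb2 kept both sides, at -0.09 ± 0.03 with EPA and 0.035 ± 0.013 with DHA, whereas Bub1b read -0.021 and 0.038 on the DHA arrays and no longer did.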

How the results depend on the processing

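With 1 sample per fatty acid no difference from control has a replicate check, the likely direction and the log base remain readings, and differences of the size seen here are near the gap between probes of a gene. Depth of signal over background is unknown for these ratios. Read as Cy5 over Cy3, the median of the cell cycle genes was 0.0015 with EPA, the median EPA minus DHA difference was 0.073, and the genes below 0 on all 4 arrays numbered 3, with 1 in the replication and S phase list. Without the first 66 columns the DHA median was 0.00064 and 5 genes lay below 0 on all 4 arrays. In base 10 the cell cycle genes past 1.5-fold on both arrays would be 5 with EPA and 1 with DHA. Every fold would be larger in that base, and the same count over all genes was not taken. Leaving out array 1 or array 2 of the swaps gave 0 to 1 cell cycle genes past 1.5-fold with EPA and 0 to 5 with DHA. The 5 with DHA, on array 1 alone, were Ccnd3, Cdkn1b, Mcm4, Pcna and Aurkb, and the 1 with EPA was Pcna. Each has a probe in the affected columns, and the same count over all genes was not taken. The medians were then -0.096 to -0.046 with EPA and -0.10 to -0.02 with DHA, and the median EPA minus DHA difference -0.0501 to 0.014. Without array 2 and without array 1 of both swaps, 18 and 19 cell cycle genes lay below 0 on both arrays left, beside 30.9% and 36% of all genes, and 13 on the 3 arrays left without DHA array 1 alone, beside 14%. In the replication and S phase list, 15 of 40 on all 4 arrays, the counts were 19, 27 and 23. limma passed 0 to 9 cell cycle probes when arrays were left out. Fitted to 4 arrays with or without the array number as a replicate block, limma passed 0 cell cycle probes (smallest adjusted p = 0.503 with the block and 0.899 without it, over cell cycle probes), with 8 cell cycle probes at an unadjusted p under 0.05 in both fits, beside 8.38% of all probes with the block and 4.84% without it. The array number marks the dye orientation, so it pairs dyes and not RNA samples. The other alternatives (no centring, equal spread, quantile normalization, local median removed, the probe with the smallest gap, and repeated values left out) left the fold and limma counts at 0 where run and the EPA and DHA medians below 0, with a median EPA minus DHA difference of -0.037 to 0.0091, while 9 to 12 cell cycle genes lay below 0 on all 4 arrays.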
